A study of Mus musculus with 12 samples.

Results

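The Ifi200 family studied here is a set of 10 mouse genes of a cluster on chromosome 1, with related genes between some of them: Ifi203, Ifi204, Ifi205, Ifi206, Ifi207, Ifi208, Ifi209, Ifi211, Ifi213 and Mndal. All 10 were found by symbol among the 12441 genes of the expression table. The family was chosen by measured values as well as by name: Ifi208 had been seen to differ between D316Y and wild-type (WT) macrophages, and the question was whether it differed alone. The genotype values below are therefore a description, with no p-value for a member. The effect of lipopolysaccharide (LPS) did not choose the genes, though earlier results of these data were known when they were chosen. It was tested in the 9 genes other than Ifi208. The LPS differences of Ifi208 are given without a test, since its difference had been seen in these same libraries.

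RNA was sequenced from macrophages grown out of mouse bone marrow, after lysis of red cells, over 6 days in a culture medium that held 10% L929-conditioned medium. WT cells and cells homozygous for D316Y, an amino acid substitution in the coenzyme Q biosynthesis enzyme COQ6, were either left untreated or given 100 ng/mL LPS for 24 h. Each of these 4 groups had 3 libraries. The labels name neither strain, sex nor age of the mice, nor whether replicates came from separate animals or cultures. Each p-value thus reflects the spread among these libraries, which may be technical. The table held between 32.8 M and 47.2 M reads per library. Of the macrophage markers, 7 of 7 were in the table. Their summed levels were 34270 to 38250 CPM (counts-per-million of reads) in unstimulated WT and 31910 to 34420 in unstimulated D316Y. With LPS they were 62990 to 69170 in WT and 53480 to 62140 in D316Y, with no overlap between the genotypes. Of 3 T cell markers 0 were in the table, and of 4 B cell markers 1 was, Cd79b. The neutrophil markers Elane, Mpo and Retnlg were not in the table; the other 5 of 8 summed to 7.01 to 18.5 CPM in unstimulated WT, 13.8 to 29.96 in unstimulated D316Y, 30.2 to 55.2 in WT with LPS and 42.1 to 51.7 in D316Y with LPS. The part of these marker differences in the results was not tested. D316Y is a substitution, so the level of Coq6 RNA does not check the genotype labels.

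Ifi200 proteins belong to the PYHIN family, which joins a pyrin domain, a fold for contacts between proteins, to HIN domains that bind DNA. Some members act in the nucleus and cytosol of macrophages as sensors of foreign or misplaced DNA and as regulators of transcription and cell growth. Several feed into the adaptor STING or the inflammasome. Many are induced by interferon, which LPS-treated macrophages themselves make and release. RefSeq lists Pydc3 and Pydc4, names given to pyrin domain genes, as other symbols of Ifi208 and Ifi213.

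The 10 genes spanned 563.326 kb, from 173468485 to 174031810 of chromosome 1 (assembly GRCm38, GENCODE M21). From left to right they were Ifi206 (173468485 to 173491041), Ifi213 (173566283 to 173599274), Ifi209 (173630917 to 173647928), Ifi208 (173673675 to 173698395), Ifi207 (173723427 to 173741747) and Ifi204 (173747293 to 173766943), then Mndal (173849126 to 173942491), Ifi211 (173896345 to 173913046), Ifi203 (173920407 to 173942672) and Ifi205 (174011998 to 174031810). Ifi208 and Ifi209 lie on the plus strand and the other 8 on the minus strand. All are protein-coding. The annotated span of Mndal covers Ifi211 and most of Ifi203, and 155 of its exonic bases (4.27%) overlap other genes, Ifi203 among them.

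The promoters of the family are shown first because Ifi208 shares nearly all of its own with Ifi206 and Ifi213. RefSeq promoter windows (GRCm38.p6, 250 bases before to 50 after the gene start) were matched by symbol for 9 of the 10 genes; Ifi204 was not matched. They come from the reference genome, not from these mice. In the stretch of the windows that aligned, Ifi208 and Ifi213 were identical at 282 of 285 positions (98.9%), and Ifi208 and Ifi206 at 279 of 282 (98.9%, 1 gap). Against Ifi209, its neighbour on the same strand, Ifi208 was 74.5% identical over 145 aligned positions, 23 of them gaps. The 250 bases before the start of each of the 3 genes follow, 5′ to 3′ on the gene's own strand: chr1:173673415-173673664 on the plus strand for Ifi208, chr1:173599273-173599522 on the minus strand for Ifi213 and chr1:173491319-173491568 on the minus strand for Ifi206. Capitals mark a match to the interferon response motif, GAAA, any 2 bases and GAAA again.
Ifi208: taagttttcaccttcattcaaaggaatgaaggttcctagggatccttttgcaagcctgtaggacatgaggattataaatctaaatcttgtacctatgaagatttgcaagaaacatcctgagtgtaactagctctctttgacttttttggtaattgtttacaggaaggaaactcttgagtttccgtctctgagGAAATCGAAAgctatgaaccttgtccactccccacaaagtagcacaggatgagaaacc
Ifi213: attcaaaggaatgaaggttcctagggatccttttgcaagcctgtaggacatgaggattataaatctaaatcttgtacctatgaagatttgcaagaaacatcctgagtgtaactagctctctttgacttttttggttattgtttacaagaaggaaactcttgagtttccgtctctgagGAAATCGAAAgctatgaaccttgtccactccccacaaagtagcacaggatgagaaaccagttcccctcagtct
Ifi206: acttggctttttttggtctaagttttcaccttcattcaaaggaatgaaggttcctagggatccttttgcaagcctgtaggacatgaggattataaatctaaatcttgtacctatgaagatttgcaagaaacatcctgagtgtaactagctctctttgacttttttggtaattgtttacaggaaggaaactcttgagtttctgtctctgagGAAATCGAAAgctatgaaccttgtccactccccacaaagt

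The interferon response motif, searched on both strands, was present in 8 of the 9 genes, against 4.15% of the 8972 measured genes with a window. Of 32851 RefSeq promoter windows of the same length, 3.44% held it. Ifi203 and Mndal had more than 1 window and were counted if any held the motif, and 1 Ifi203 window lacked it. The first base of the motif lay at position -58 in Ifi208, -73 in Ifi213 and -40 in Ifi206, counting -1 as the last base before the start. The gene without the motif was Ifi209. A shorter string that overlaps it, AAATCGAAA, was chosen after the family's promoters had been seen, so nothing is read from its count. It was present in 7 of the 9 genes, Ifi209 included, against 0.223% of measured genes with a window and 0.125% of all windows. Ifi205 and Ifi211 lacked it and carried the interferon motif in another spelling. The gamma-activated motif TTCNNNGAA was found in 0 of the 9 genes, against 8.4% of measured genes with a window and 8.30% of all windows. Some windows are near copies of one another, as in Ifi206, Ifi208 and Ifi213, or Ifi205 and Ifi211 (93.5% identical over 201 aligned positions). The matches in the 9 genes are therefore not independent. These matches describe letters in a window and show no binding. The bases around the match in the other 6 genes are given to compare the spellings, with capitals for the interferon motif, or for AAATCGAAA in Ifi209. They lie at chr1:173630761-173630809 (plus strand, Ifi209), chr1:173942498-173942547 (minus strand, Ifi203), chr1:173880194-173880243 (minus, Mndal), chr1:173741821-173741870 (minus, Ifi207), chr1:174031860-174031909 (minus, Ifi205) and chr1:173913054-173913103 (minus, Ifi211).
Ifi209: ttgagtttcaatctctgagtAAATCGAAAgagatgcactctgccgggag
Ifi203: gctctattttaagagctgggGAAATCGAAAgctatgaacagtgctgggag
Mndal: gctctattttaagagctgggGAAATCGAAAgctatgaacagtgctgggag
Ifi207: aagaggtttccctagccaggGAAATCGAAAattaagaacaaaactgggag
Ifi205: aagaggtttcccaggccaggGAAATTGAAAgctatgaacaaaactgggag
Ifi211: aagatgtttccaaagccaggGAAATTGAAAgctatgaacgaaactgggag

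The genes also share transcript sequence, which bears on how their reads could be assigned. Of the 50-base stretches in Ifi208 transcripts, 20.9% also occur in transcripts of another gene, 18.1% in those of Ifi213; for 100-base stretches the shares were 5.92% and 3.22%. Ifi211 was the most exposed, with 72.8% of its 50-base stretches found elsewhere, 44.7% in Ifi205. Ifi207 was the least, with 7.29%. How the counting treated reads that match several genes, and whether it used strand, is not given in the sources used here, so a level in one gene may hold reads of a near-identical neighbour.

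LPS raised most of the family in WT macrophages. Of the 9 genes other than Ifi208, 6 rose, 1 fell and 2 did not pass the test (limma on log2 CPM, Benjamini-Hochberg adjustment over the 11663 genes tested, adjusted p under 0.05). Over all genes tested, 18.1% rose and 19.0% fell. The libraries of the groups did not overlap for 8 of these 9 genes, against 46.8% of all genes. Their median difference was 1.34 on the log2 scale, against -0.0056 over all genes. In bulk RNA, fewer cells that express a gene and less RNA per cell cannot be told apart.

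Ifi206 and Ifi213, whose promoters match that of Ifi208, both rose. Ifi206 stood at 5.38, 4.28 and 4.18 log2 CPM in unstimulated WT replicates 1, 2 and 3 and at 7.05, 6.72 and 7.22 with LPS, a difference of 2.38 (SE 0.34, adjusted p 1.02e-04). Ifi213 stood at 4.57, 4.24 and 4.10 and at 6.54, 6.85 and 6.88, a difference of 2.45 (SE 0.30, adjusted p 2.51e-05). All LPS libraries lay above all unstimulated ones for both genes, and replicate 1 was the highest unstimulated library of each.

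Ifi205, which encodes p205, a nuclear protein known to promote transcription of the inflammasome adaptor gene Pycard, rose the most. Its level was 4.14, 3.52 and 3.59 log2 CPM without LPS and 6.49, 6.96 and 7.07 with it, a difference of 3.09 (SE 0.32, adjusted p 5.50e-06), or 8.53-fold. Ifi211, a close relative of Ifi205, rose by 1.34 (SE 0.22, adjusted p 3.55e-04). Ifi209, also listed as Pyhin1, was at 7.18, 6.47 and 6.41 without LPS and 8.76, 8.98 and 9.05 with it, a difference of 2.24 (SE 0.24, adjusted p 9.83e-06). The groups did not overlap for any of these 3 genes.

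Ifi204 and Ifi207 moved in opposite directions. Ifi204, whose product p204 senses DNA and acts through STING, was at 7.88, 7.10 and 7.17 log2 CPM without LPS and 7.98, 8.21 and 8.18 with it. Its difference of 0.74 (SE 0.24) had an adjusted p of 0.0243, which rose to 0.0955, 0.0914, 0.0723 and 0.0716 without unstimulated replicate 2 or 3 or LPS replicate 2 or 3. Ifi207, whose product stabilises STING, fell by 0.61 (SE 0.20, adjusted p 0.0251), from 8.21, 7.53 and 7.55 to 7.20, 6.95 and 7.31. Its groups did not overlap, but the call was lost in a fit of the 6 WT libraries alone (adjusted p 0.0553), without unstimulated replicate 1 (-0.39, 0.0870) and without LPS replicate 2 (-0.52, 0.0980).

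Ifi203 and Mndal, which share a stretch of the cluster and a 94.3% identical promoter, did not pass in WT. Ifi203 was at 6.07, 5.77 and 5.64 log2 CPM without LPS and 6.03, 6.27 and 6.12 with it (difference 0.32, SE 0.17, adjusted p 0.154), and the groups overlapped. Mndal, named after the myeloid nuclear differentiation antigen, was at 6.49, 6.32 and 6.27 and at 6.59, 7.09 and 6.83 (difference 0.48, SE 0.19, adjusted p 0.0698). Its groups did not overlap, and without LPS replicate 1 its adjusted p was 0.0438.

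Ifi208 was nearly silent in WT cells. It drew 17 to 25 reads per library without LPS and 50 to 83 with LPS. Its level was -1.13, -1.28 and -1.23 log2 CPM without LPS and 0.23, 0.74 and 1.02 with it, so each LPS library lay above each unstimulated one. The difference was 1.88 (SE 0.41), given without a test. The minimum for testing was a mean of 0 log2 CPM in a compared group, which Ifi208 reached only through its LPS libraries.

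The size of these LPS differences depends on the library scaling, which the authors set. Scaling by the total reads in the table, an alternative added after the data had been seen, moved the median of all genes to -0.52 in WT and -0.55 in D316Y, from -0.0056 and -0.026. It then called 7.77% of genes higher and 50.7% lower in WT, and 8.8% and 49.9% in D316Y. Under it, Ifi203 and Mndal turned to -0.19 and -0.03 in WT, where neither had passed, and Ifi204 stood at 0.23 (adjusted p 0.364). Ifi207 stood at -1.12 in WT and passed as lower in D316Y (-0.78, adjusted p 0.00309), where Ifi203 (0.29, adjusted p 0.122) and Mndal (0.41, adjusted p 0.0625) no longer passed. Ifi205, Ifi206, Ifi209, Ifi211 and Ifi213 passed as higher in both genotypes under either scaling.

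**Figure D1:**
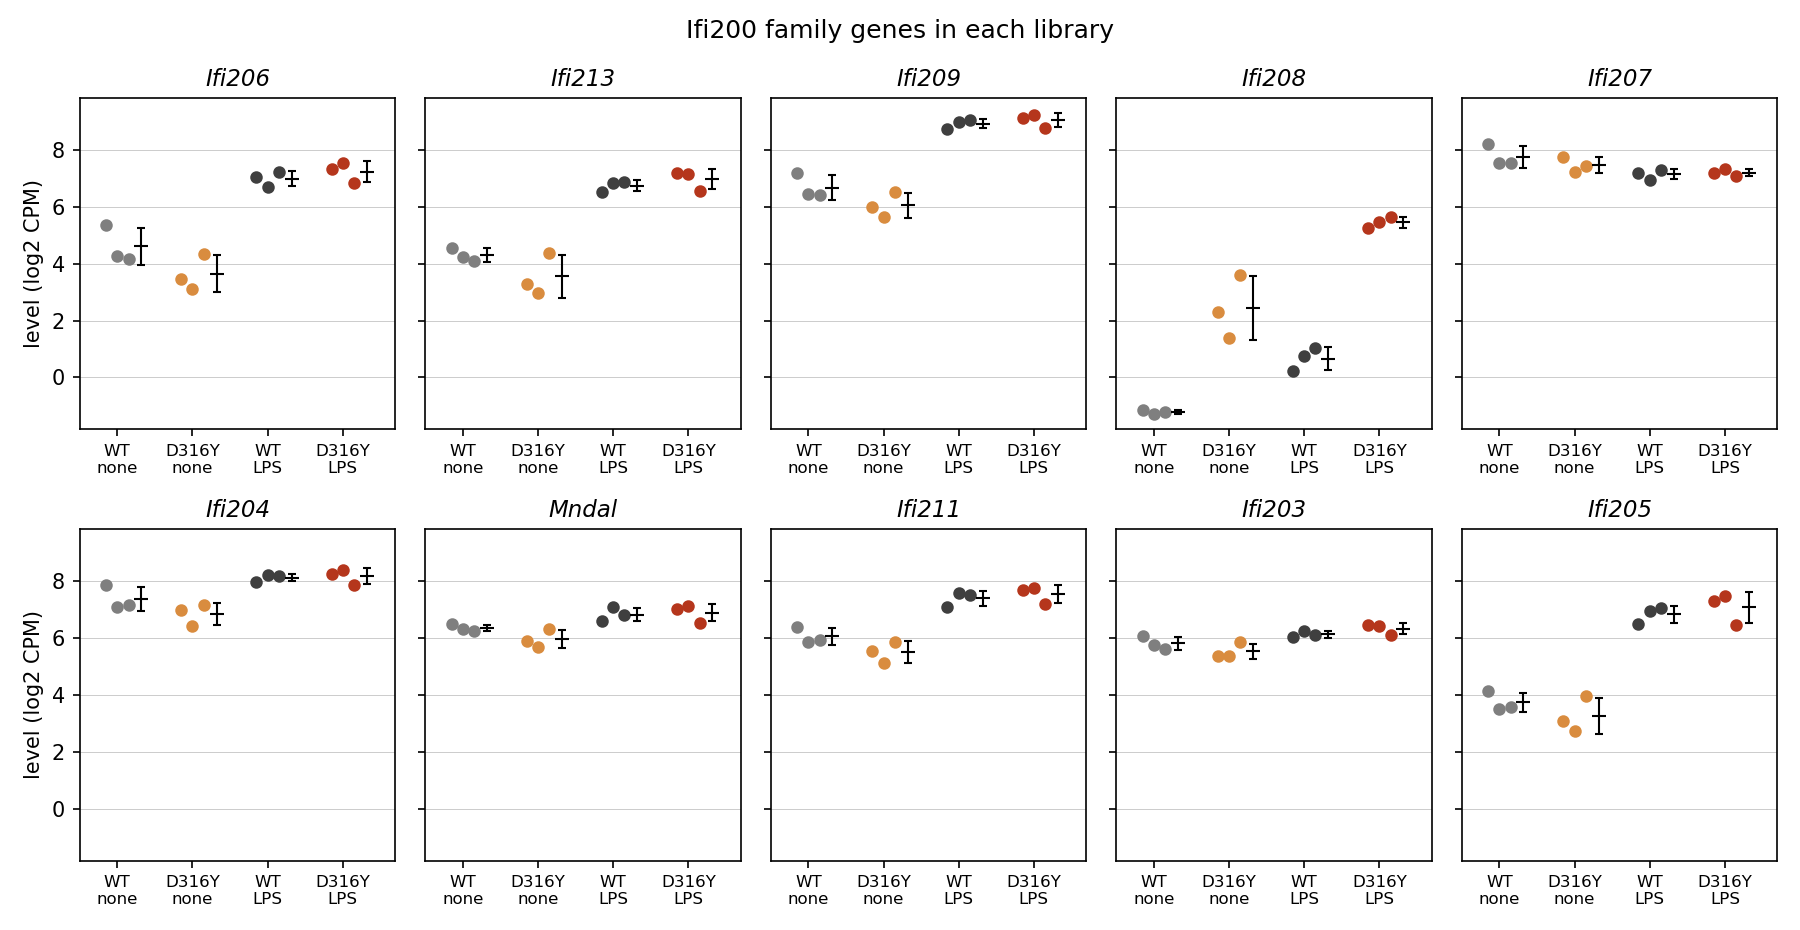
Level of each of the 10 genes in every library, in chromosome order from left to right and top to bottom. The vertical axes give log2 CPM; each point is 1 library, and the horizontal tick with its bar is the mean ± SD of the 3 libraries. Ifi208 is the gene whose D316Y points lie above the WT points with and without LPS; in the other 9 panels the genotypes overlap within each treatment.

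In D316Y macrophages LPS raised every tested member but Ifi207. Of the 9 genes other than Ifi208, 8 rose, 0 fell and 1, Ifi207, did not pass, against 19.4% of 11795 genes tested that rose and 19.0% that fell. The groups did not overlap for 8 of the 9, against 52.8% of all genes. Ifi206 went from 3.48, 3.11 and 4.36 log2 CPM to 7.35, 7.54 and 6.84, a difference of 3.59 (SE 0.34, adjusted p 2.46e-06), or 12.1-fold. Ifi213 went from 3.31, 2.97 and 4.40 to 7.20, 7.17 and 6.57, a difference of 3.42 (SE 0.30, adjusted p 1.04e-06). In both genes replicate 3 was the highest library without LPS and the lowest with it.

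Ifi205 rose by 3.82 (SE 0.32), Ifi209 by 3.00 (SE 0.24), Ifi211 by 2.05 (SE 0.22) and Ifi204 by 1.32 (SE 0.24) in D316Y, with adjusted p from 6.86e-07 (Ifi205) to 5.60e-04 (Ifi204). Ifi203 and Mndal, which did not pass in WT, rose by 0.80 (SE 0.17, adjusted p 0.00160) and 0.93 (SE 0.19, adjusted p 0.00183). Ifi207 was at 7.76, 7.22 and 7.46 log2 CPM without LPS and 7.20, 7.34 and 7.11 with it (difference -0.27, SE 0.20, adjusted p 0.311), with overlapping groups. Ifi208 was at 2.32, 1.39 and 3.61 without LPS and at 5.26, 5.47 and 5.66 with it, a difference of 3.02 (SE 0.41) given without a test. Left-out single libraries moved the Ifi208 difference between 2.5 and 3.61.

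**Figure D2:**
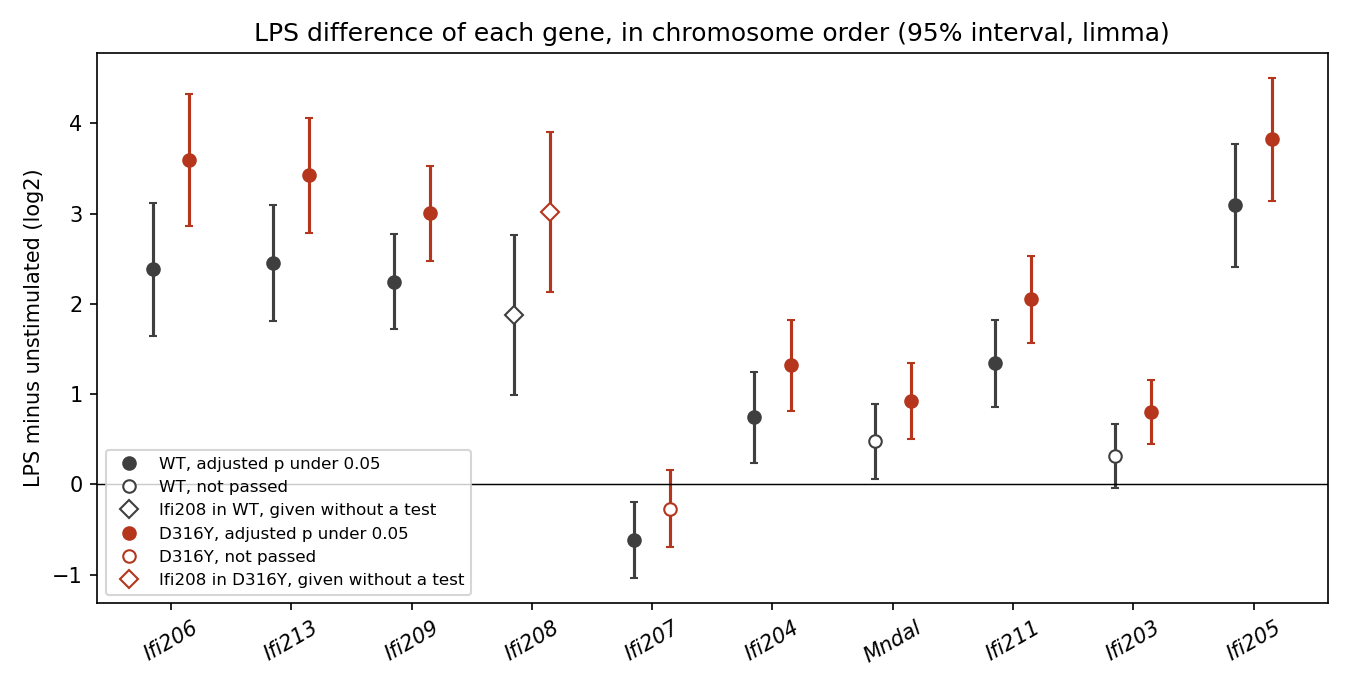
LPS minus unstimulated difference on the log2 scale for each gene, in WT (dark) and D316Y (red), with 95% intervals from limma. Filled circles passed at an adjusted p under 0.05, open circles did not, and open diamonds are Ifi208, given without a test. Every D316Y point lies above its WT point, from 0.35 higher for Ifi207 to 1.21 higher for Ifi206.

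The difference between those LPS effects, the genotype by LPS interaction, was positive for all 10 genes, against 51.7% of all genes tested. The interaction was positive for 16 of 16 interferon effectors, 11 of 11 interferon signalling genes and 9 of 13 DNA sensing genes (lists given below). Of the 9 other than Ifi208 it passed for 0, as for 0 of 11918 genes tested (0.0%; limma, and 0 of the 9 with voom weights as well). Without adjustment, 4 of the 9 had p under 0.05 (Ifi206, Ifi209, Ifi211 and Ifi213), against 2.11% of all genes. It was 1.21 for Ifi206 (SE 0.48), 0.97 for Ifi213 (SE 0.42) and 1.14 for Ifi208 (SE 0.58). Without unstimulated D316Y replicate 2 the Ifi208 value was 0.62, and without replicate 3 it was 1.73. This contrast is built from the genotype differences that follow, so it is a description too.

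Between genotypes, Ifi208 was far higher in D316Y, with and without LPS, while the libraries of the other 9 members overlapped those of WT. Without LPS the D316Y minus WT difference of Ifi208 was 3.66 on the log2 scale (SE 0.51, 95% interval 2.49 to 4.83), and with LPS it was 4.80 (SE 0.21, 95% interval 4.34 to 5.27). It was the largest genotype difference, by size, of the 11525 genes tested without LPS and of the 11306 tested with LPS. Since Ifi208 was chosen for its genotype difference, nothing is read from this rank. Without LPS, Ifi208 reached the minimum for testing only through D316Y, with a mean of 2.44 log2 CPM against -1.22 in WT. Leaving out single libraries moved the Ifi208 difference between 3.07 and 4.18 without LPS and between 4.58 and 4.98 with LPS. The authors' deposited table gives Ifi208 log2 fold changes of 3.67 and 4.58.

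The 3 D316Y libraries without LPS differed widely in Ifi208, from 1.39 to 3.61 log2 CPM, with an SD of 1.11 against 0.08 in unstimulated WT. The lowest of them, replicate 2, still lay above the highest WT library with LPS, at 1.02. With LPS the D316Y libraries lay close together, with an SD of 0.20. D316Y libraries did not overlap WT libraries under either treatment, from which nothing is read, since this difference chose the family.

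The 9 other members stood lower in D316Y without LPS and about level with LPS. Without LPS all 9 differences were negative, with a median of -0.52 and a range from -0.96 (Ifi206, SE 0.39) to -0.28 (Ifi203, SE 0.19, and Ifi207, SE 0.24); over all genes 6198 of 11525 were negative. With LPS all 9 were positive and small, with a median of 0.15 and a range from 0.06 (Ifi204, SE 0.15) to 0.25 (Ifi206, SE 0.18). Those of Ifi204, Ifi207 and Mndal turned slightly negative, to -0.06 at the lowest, when single WT or D316Y LPS libraries (replicate 1 or 2) were left out. Read gene by gene, their 95% intervals without LPS reached from -1.87 (Ifi206) to 0.27 (Ifi207), and those with LPS from -0.31 (Mndal) to 0.76 (Ifi205). The interval of Ifi208 lay above all of these under both treatments, but its difference chose the family, so nothing is read from that.

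Of the 9 other members, 0 passed in either comparison, where 0.00868% of genes did without LPS and 0.0442% with LPS (limma, and 0 of the 9 with voom weights as well). Without adjustment, p was under 0.05 for 2 of the 9 without LPS (2.92% of all genes) and for 0 with LPS (6.50% of all genes). Groups without overlap were found for 0 of the 9 in each comparison, against 8.13% of all genes without LPS and 12.5% with LPS. Since the genotype differences of the family were known when it was chosen, nothing is read from these counts.

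**Figure D3:**
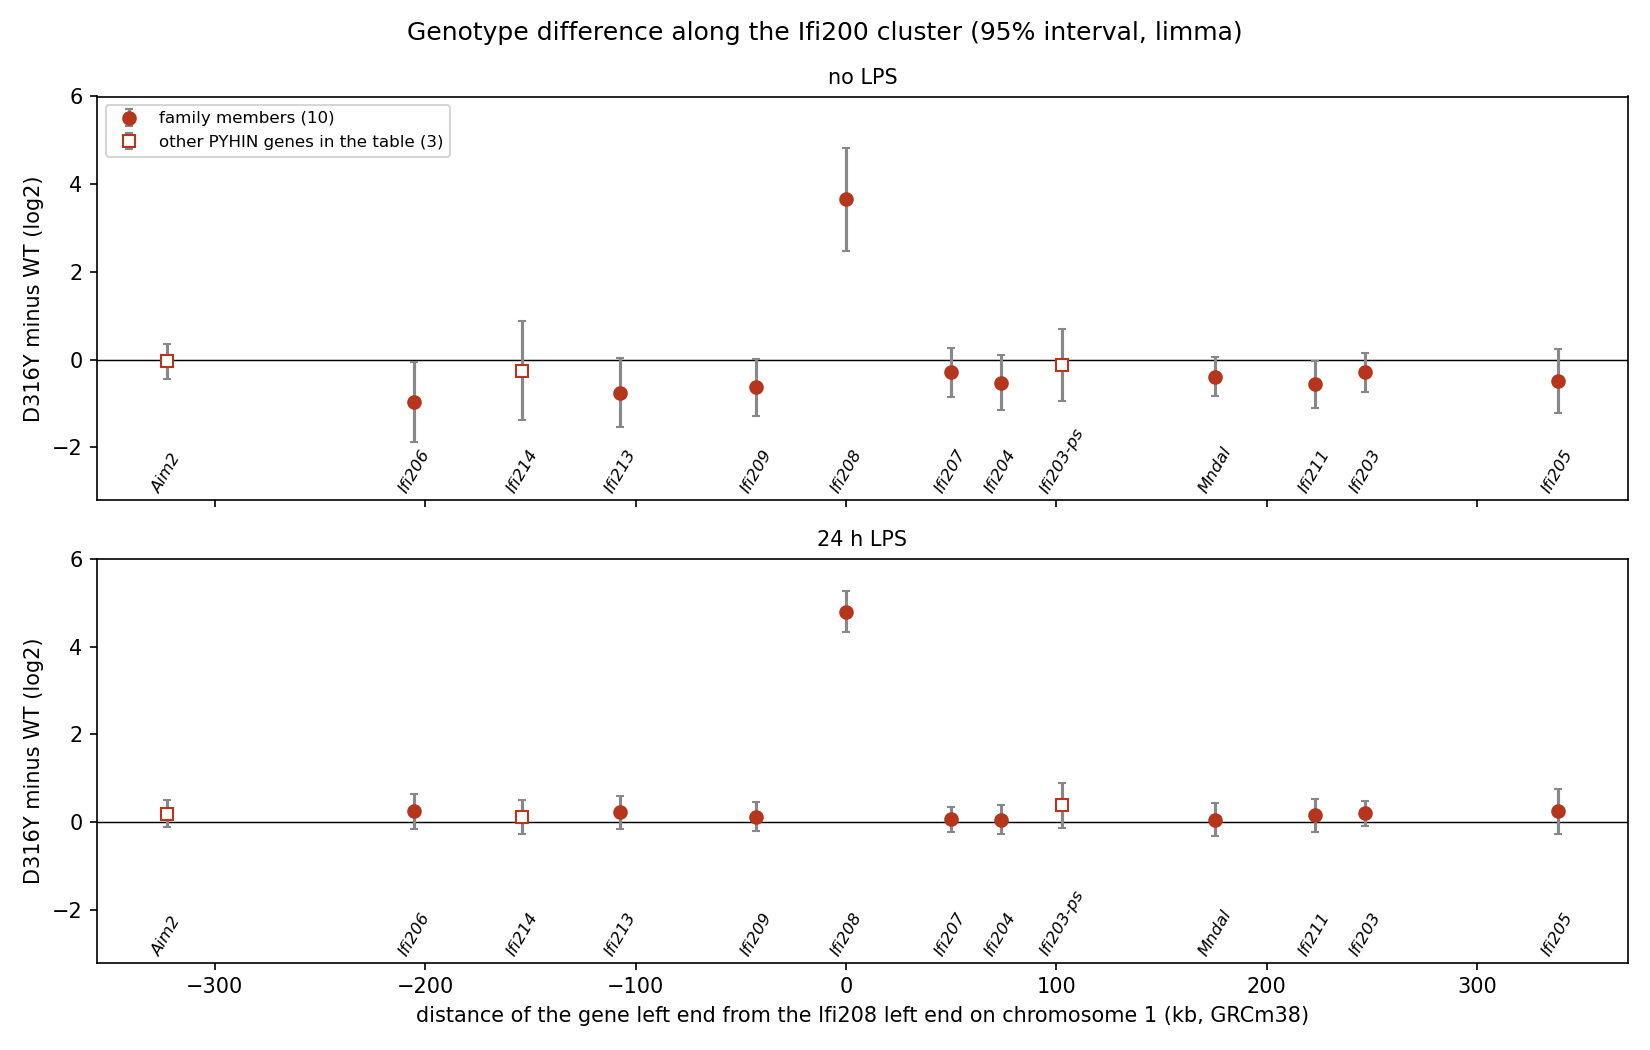
D316Y minus WT difference on the log2 scale along the cluster, without LPS (top) and with LPS (bottom). The horizontal axis is the distance of the left end of each gene from that of Ifi208 in kb; circles are the 10 members, squares the 3 other PYHIN genes in the table, and bars 95% intervals from limma. Ifi208 stands at 3.66 and 4.80, while the genes on either side of it, Ifi209 and Ifi207, stand at -0.63 and -0.28 without LPS and at 0.13 and 0.06 with LPS.

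The genes next to Ifi208 did not share its difference. Ifi209, to its left, was at 5.99, 5.64 and 6.54 log2 CPM in unstimulated D316Y and 9.15, 9.25 and 8.78 with LPS, overlapping WT under both treatments. Ifi207, to its right, overlapped WT under both treatments as well. Outside the PYHIN genes, 7 genes within 1 Mb of the cluster were tested, all of them to its left, so the region to its right was not covered. Their differences, with the extremes named after their values were seen, ran from -0.34 (Igsf9) to 0.85 (4933439K11Rik) without LPS and from -0.23 (Tagln2) to 0.40 (Igsf9) with LPS, and 0 passed in either comparison (limma), also 0 without adjustment. The nearest measured gene to the left that is no PYHIN gene, the phosphatase gene Dusp23 (172630764 to 172632962), stood at -0.12 and -0.17. Its left end lay at -1042.911 kb from that of Ifi208. The nearest such gene to the right, the olfactory receptor gene Olfr433 (174040705 to 174044411), fell under the minimum for testing.

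Of 5 other PYHIN genes listed, 3 were in the table; Ifi202b and a separate Pyhin1 were not analysed here. Aim2, the inflammasome sensor of cytosolic DNA, rose with LPS in both genotypes, with a difference of 0.63 in WT (SE 0.16, adjusted p 0.00641) and one of 0.87 in D316Y cells (SE 0.16, adjusted p 6.28e-04). Ifi214, whose promoter is 95.7% identical to that of Ifi209, rose by 3.13 (SE 0.39, adjusted p 3.28e-05) and 3.49 (SE 0.39, adjusted p 1.13e-05). The pseudogene Ifi203-ps did not pass (0.18 and 0.69, adjusted p 0.70 and 0.110). Between genotypes the 3 stood at -0.04, -0.25 and -0.13 without LPS and at 0.20, 0.12 and 0.38 with LPS, all with overlapping groups.

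Set against the genes that share its promoter, within each library and per kb of exon, Ifi208 lay far below both in WT and less far below both in D316Y, where it came closer to Ifi213 than to Ifi206. This ratio does not depend on the library scaling. Ifi208 minus Ifi213 was -5.32, -5.15 and -4.96 log2 units in unstimulated WT replicates 1, 2 and 3 and -0.61, -1.19 and -0.40 in unstimulated D316Y. With LPS it stood at -5.93, -5.73 and -5.48 in WT and at -1.56, -1.32 and -0.53 in D316Y. The WT gap was wider with LPS, at a mean of -5.71 ± 0.22 (SD, n = 3) against -5.14 ± 0.18, with no overlap between the libraries. In D316Y the gap was -0.73 ± 0.41 without LPS and -1.14 ± 0.54 with LPS. Against Ifi206 the means were -6.61 and -7.12 in WT and -1.99 and -2.56 in D316Y. Here the WT libraries without LPS (-7.29 to -6.20) and with LPS (-7.61 to -6.76) overlapped. The genotypes did not overlap for either gene. Since the genotype difference of Ifi208 chose the family, nothing is read from this.

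**Figure D4:**
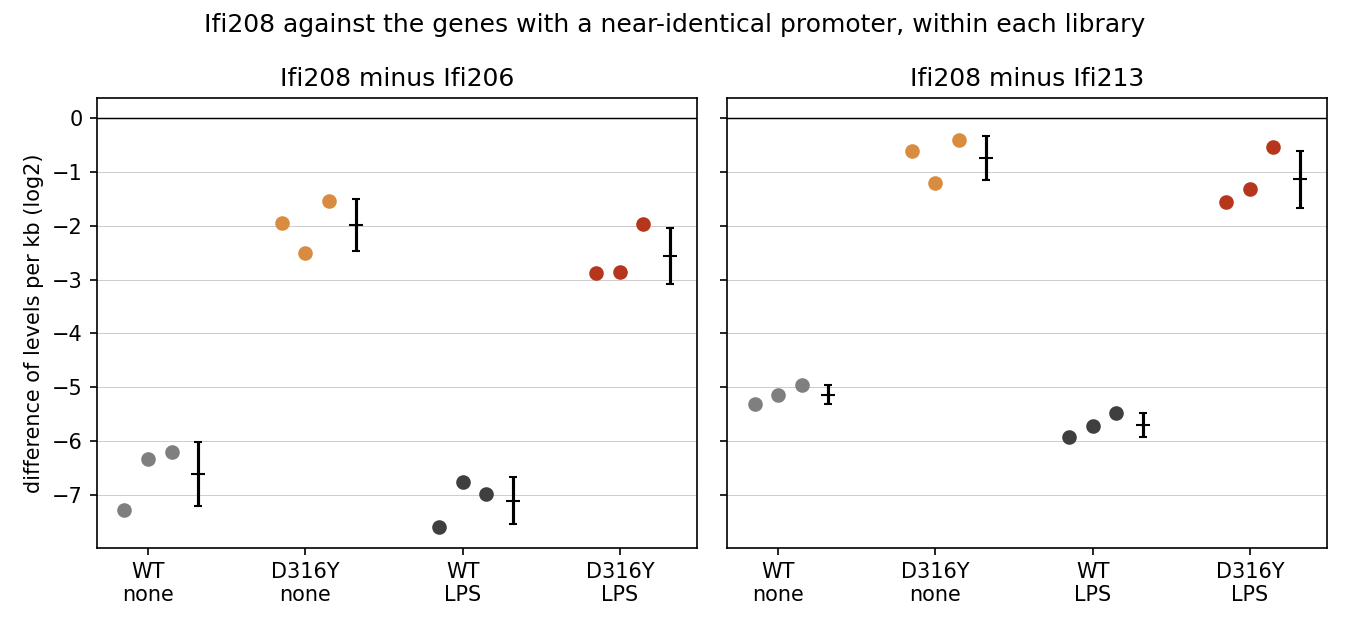
Ifi208 minus Ifi206 (left) and Ifi208 minus Ifi213 (right) within each library, as a difference of log2 levels per kb of exon. Each point is 1 library, and the tick with its bar is the mean ± SD of 3 libraries. WT points lie between -7.61 and -4.96, and D316Y points between -2.87 and -0.40.

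As a share of all reads of the 10 genes, Ifi208 took 0.0447% to 0.0632% in unstimulated WT and 0.0801% to 0.115% in WT with LPS. In D316Y it took 0.843% (95% Wilson interval 0.747% to 0.951%), 0.598% (0.509% to 0.703%) and 1.80% (1.66% to 1.95%) without LPS in replicates 1, 2 and 3. With LPS it took 1.96% (1.86% to 2.06%), 2.10% (2.00% to 2.20%) and 3.44% (3.28% to 3.61%). The family as a whole drew 24241 to 79609 reads per library, so Ifi208 remained a minor part of it in every library. The intervals cover counting error only, because reads with no molecular identifiers do not count separate molecules.

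The order of levels per kb of exon (log2 CPM per kb, group means) was led without LPS by Ifi207 (5.99 in WT and 5.71 in D316Y), followed by Ifi204, Ifi211, Ifi209, Mndal, Ifi203, Ifi206, Ifi205, Ifi213 and Ifi208. In WT only the steps from Mndal to Ifi203, from Ifi206 to Ifi205 and from Ifi213 to Ifi208 were free of overlap between neighbours in the order. Ifi208 stood at -3.61, a gap of 5.14 below Ifi213. In D316Y it stood at 0.05, and its libraries overlapped those of Ifi213 at 0.78.

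With LPS the lead passed to Ifi209 (7.10 in WT and 7.23 in D316Y), followed by Ifi211, Ifi204, Ifi206, Ifi207, Mndal, Ifi205, Ifi213, Ifi203 and Ifi208 in both genotypes. Ifi208 was last again, at -1.73 in WT, 5.13 below Ifi203, and at 3.07 in D316Y, 0.53 below Ifi203. Neither step had overlapping libraries.

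In 3 of the 4 groups the other members shared their highest or lowest library, and Ifi208 followed them only in part. In unstimulated WT, replicate 1 was the highest library for 10 of 10 members, Ifi208 included, against 46.4% of all genes. In unstimulated D316Y, replicate 2 was the lowest for 10 of 10, against 29.3% of all genes, and replicate 3 the highest for 9 of 10. In D316Y with LPS, replicate 3 was the lowest library for all 9 other members and the highest for Ifi208. In WT with LPS the other 9 were split: replicate 1 was the lowest for 7 and replicate 2 for 2, and the highest was replicate 3 for 5 and replicate 2 for 4. Without both unstimulated replicate 1 libraries, an alternative added after the data had been seen, the genotype difference at rest was 3.76 for Ifi208 and between -0.50 (Ifi206) and -0.09 (Ifi203) for the others, against -0.96 and -0.28 with them.

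Interferon effector genes, antiviral genes that interferon induces, moved with the family in the same libraries. The mean level of 16 of them was 7.20, 6.50 and 6.47 log2 CPM in unstimulated WT and 5.95, 5.56 and 6.53 in unstimulated D316Y. With LPS it was 7.93, 8.22 and 8.32 in WT and 8.45, 8.57 and 7.92 in D316Y. The mean of the 9 members other than Ifi208 was 6.26, 5.68 and 5.65, then 5.27, 4.92 and 5.77, then 7.08, 7.29 and 7.35, then 7.52, 7.61 and 7.06 in the same order. The highest and lowest library of each group by these means were the same for both sets. The part of these interferon differences in the family's values was not tested.

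Among those 16 effectors, LPS raised 12 in WT (18.1% of all genes rose) and 16 in D316Y (19.4% of all genes) and lowered 0 (19.0% of all genes in each genotype). Oasl1, an oligoadenylate synthetase-like protein, rose by 3.40 in WT (SE 0.38, adjusted p 1.16e-05), the ubiquitin-like modifier Isg15 by 2.26 (SE 0.30, adjusted p 5.95e-05) and the GTPase Gbp2 by 1.89 (SE 0.29, adjusted p 1.77e-04). Between genotypes 0 of 16 passed under either treatment (limma; 0.00868% of all genes without LPS and 0.0442% with LPS). Without adjustment, p was under 0.05 for 4 of them without LPS (2.92% of all genes) and for 2 with LPS (6.50%). All 16 stood lower in D316Y without LPS (median -0.74), and 13 of 16 stood higher with LPS (median 0.09). Of the 9 family members other than Ifi208, likewise, 9 stood lower without LPS and 9 higher with it.

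Of 13 measured genes of DNA sensing and its signalling, 8 rose and 1 fell with LPS in WT, and 7 rose and 1 fell in D316Y, beside the same shares of all genes. Irf7, the transcription factor that amplifies interferon production, rose by 2.85 in WT (SE 0.28, adjusted p 3.63e-06), and Zbp1, a sensor of left-handed nucleic acids, by 2.44 (SE 0.26, adjusted p 8.71e-06). Dnase2a, which degrades DNA in lysosomes, fell by 1.09 (SE 0.13, adjusted p 1.60e-05). Of 11 genes of interferon signalling, 7 rose in WT, 8 in D316Y and 0 fell. Usp18, which restrains interferon receptor signalling, rose by 2.38 (SE 0.27, adjusted p 1.72e-05), the transcription factor Stat2 by 1.10 (SE 0.21, adjusted p 9.97e-04) and the feedback inhibitor Socs1 by 3.24 (SE 0.72, adjusted p 0.00303). In these 2 lists 0 genes passed between genotypes (limma); without adjustment 1 of 12 sensing and 1 of 10 signalling genes did without LPS (2.92% of all genes), and 1 of 13 and 0 of 11 with LPS (6.50%).

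The genes whose pattern over the 12 libraries was most like that of Ifi208 were not members of its family. By Pearson correlation of log2 CPM over 11917 genes, the top 5 were Selenbp2, a selenium-binding protein (r 0.925), the sorting nexin Snx7 (0.884), the inositol phosphate kinase Ip6k2 (0.876), Dhcr7, an enzyme of cholesterol synthesis (0.869), and Tmem216 (0.868). Selenbp2 had means of -0.02 and 0.47 log2 CPM in WT without and with LPS and of 0.98 and 1.67 in D316Y. The D316Y minus WT difference of Dhcr7 was 1.415 without LPS and 1.249 with LPS. Those of Snx7 (0.186 and 0.225), Ip6k2 (0.245 and 0.465) and Tmem216 (0.34 and 0.347) were far smaller than those of Ifi208. The family members ranked from 1147 (Ifi205, r 0.485) to 9503 (Ifi207, r -0.42), with Ifi213 at 1597 and Ifi206 at 1972. The Ifi208 pattern holds the genotype difference that chose the family, so nothing is read from the ranks of the other members. These correlations describe 12 libraries that share 4 conditions, and carry no test.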

How the data were processed

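The submitters' processing notes name STAR 2.5.1a and featureCounts 1.4.6-p5 beside bcl2fastq, Subread, limma and edgeR, with no roles; the genome build they used is not given in the sources used here. The authors deposited log2 CPM values per gene (per the file headers) for 12 libraries in tables with the same values, with 12493 rows for 12441 genes. In values under 200 reads, 100% came back to within 0.01 of a whole read, at 0.5 reads added per value; depth per library was thus recovered. Log2 fold changes of the authors' own are quoted where named. Gene positions come from GENCODE M21 (GRCm38) and promoters from RefSeq.

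The log2 CPM were tested with limma 3.58.1 (R 4.3.3; moderated with trend and robust variance), two-sided, with Benjamini-Hochberg adjustment over all genes whose mean reached 0 log2 CPM in a compared group, at 0.05. LPS effects and the interaction came from 1 fit of 12 libraries, and genotype differences from 6 libraries each. The steps were tested on simulated data first. Members and lists were chosen with earlier results of these data known. Genes of each list were named by the smallest adjusted p for LPS in WT, 3 per list, and genes like Ifi208 by the 5 highest correlations.

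Same-numbered WT and D316Y libraries without LPS deviated together (r = 0.656, 0.63 and 0.2 over genes); with LPS they did not (r = -0.14, 0.0859 and -0.0136). Between treatments, same-numbered libraries had r = 0.422, 0.231 and -0.0922 in WT and -0.189, -0.248 and -0.102 in D316Y. Whether the numbers mark pairs cannot be told from these values, and the main fits used no pairing. Alternatives were other scalings, offsets, filters, variance models, voom weights, a replicate block and leaving out libraries.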

Additional observations from a re-analysis of the deposited data

How the results depend on the processing

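No difference of a member that passed changed direction under the alternatives run. In WT, the count of members that LPS lowered was 1, and 0 in a fit of the 6 WT libraries alone; leaving out single libraries gave 0 to 1. In D316Y that count was 0, and 1 (Ifi207) with total-read scaling, which was added after the data had been seen. The count of members higher in D316Y without LPS was 0, and 1 (Ifi208, difference 3.66) in 1 fit of all 12 libraries; these values chose the family, so nothing is read from that call. By Spearman correlation, 4 of the 5 genes most like Ifi208 were shared with the Pearson list. The cause of these changes was not tested. Ifi208 in unstimulated WT rests on 17 to 25 reads per library, which limits its LPS and genotype differences, and sequence shared between members limits all levels.

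With the replicate block, no call changed among the 9 members other than Ifi208 in any of the 5 comparisons: in WT, 6 of them rose and 1 fell with LPS, and in D316Y 8 rose. The genotype differences of Ifi208 with the block were 3.66 without LPS and 4.80 with LPS.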
